A study of Saccharomyces cerevisiae with 5 samples.

Results

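The genes described here are a-specific genes of budding yeast, the pheromone-induced genes FUS1 and AGA1, and the 2 reading frames of the silent cassette HMR. FUS1 and AGA1 are not markers of mating type a. They were chosen by name, 10 in all: MFA1, MFA2, STE2, STE6, BAR1, AGA1, AGA2, FUS1, HMRA1 and HMRA2. Of these, 8 are among the 5886 genes of the expression tables, and MFA1 and MFA2, which encode the a-factor pheromone, were not analysed here. The tables come from messenger RNA sequencing of BY4741, a haploid Saccharomyces cerevisiae strain derived from S288C and of mating type a. A SUL1 knockout had 3 libraries and its wild type 2. SUL1 encodes a sulfate permease of the plasma membrane, and the series asks how its loss lengthens replicative lifespan. All cultures grew at 30 °C in YPD with 2% glucose, 2% peptone and 1% yeast extract. The series describes them as exponential, and only the knockout titles state a density, an OD of 0.6. As background, BY4741 lacks working HIS3, LEU2, MET17 and URA3, so both groups share these defects. How the knockout was made, and from how many clones, is not given in the sources used here. The titles call the libraries biological replicates.

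In a haploid yeast cell, the mating-type locus MAT on chromosome III decides which of a pair of gene sets is used. An alpha cell carries MATALPHA1, an activator of alpha-specific genes, and MATALPHA2, which with the general factor Mcm1 shuts off a-specific genes. An a cell lacks both, so Mcm1 keeps the a-specific genes on. The cassettes HML and HMR hold spare copies of the mating-type frames that the Sir proteins keep silent. When an a cell meets alpha-factor, the receptor Ste2 sends a signal through a G protein and a kinase cascade to the transcription factor Ste12, which raises genes such as FUS1 and AGA1.

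The HMR frames need their sequence context before their values can be read, because the 3 mating-type loci repeat one another. In the R64 reference, HMRA2 lies at chrIII:293179-293538 on the reverse strand, and HMRA1, with 3 coding exons, at chrIII:293835-294321 on the forward strand. HMR and HML share a left stretch of 705 identical bases and a right stretch of 203. All 360 bases of HMRA2 fall in the left stretch and equal the end of HMLALPHA2 (chrIII:12386-13018, reverse strand) from its base 274 to its last base, 633. HMLALPHA2 is in turn identical to MATALPHA2 of the reference. Of the 633 bases of HMLALPHA2, 558 lie in the left stretch and 75 do not. HMRA1 lies between the stretches, with 0 bases in either. The edge of the left stretch is shown for both cassettes, in the reading direction of the a2 and alpha2 frames (chrIII:12904-12973 and chrIII:293697-293766, reverse strand), with the shared bases in capitals.
HML: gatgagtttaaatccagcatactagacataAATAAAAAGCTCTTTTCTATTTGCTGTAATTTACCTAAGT
HMR: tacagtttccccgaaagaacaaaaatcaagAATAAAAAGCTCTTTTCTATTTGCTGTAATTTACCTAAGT

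The first 60 bases of HMRA2 (chrIII:293479-293538, reverse strand) are shown with the start codon in capitals. They occur unchanged inside HMLALPHA2 and MATALPHA2.
HMRA2: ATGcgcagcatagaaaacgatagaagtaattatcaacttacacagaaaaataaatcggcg

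Every window of 50 bases in HMRA2 occurs elsewhere in the genome, in up to 3 copies, and none of the 438 windows of HMRA1 does. The reference carries alpha information at MAT, whereas BY4741, being of mating type a, carries a1 and a2 there. Fragments from the active a1 frame can therefore match only HMRA1 in this reference. Fragments from the active a2 frame match HMRA2 and the ends of HMLALPHA2 and MATALPHA2 alike. Among the other 6 members no window was repeated, except 2 of 2129 in AGA1.

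**Figure D1:**
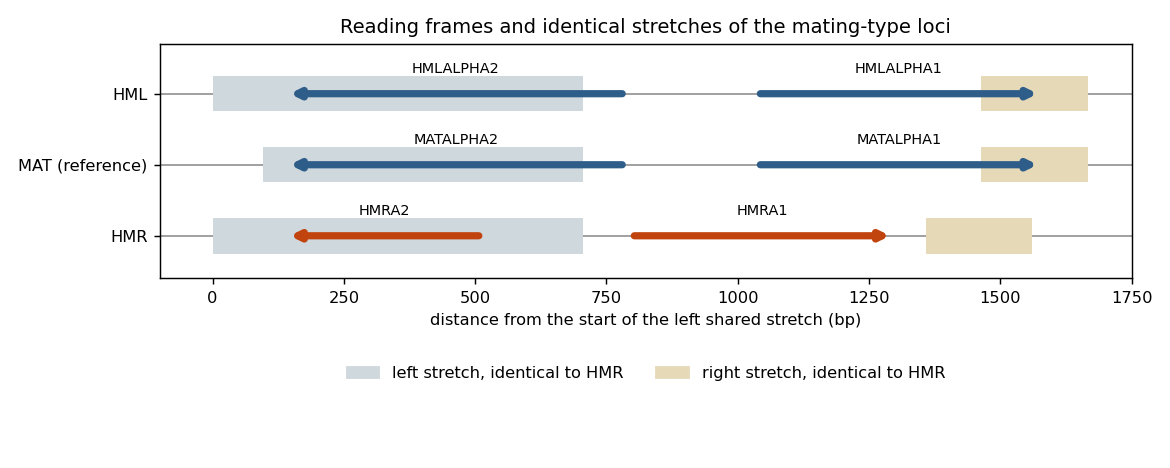
Reading frames (arrows) and stretches identical to HMR (shaded) at HML, at MAT of the reference and at HMR, against the distance in bp from the start of the left shared stretch. HMRA2 lies wholly inside the left stretch, which also holds 558 of the 633 bases of HMLALPHA2, while HMRA1 lies between the stretches.

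The promoters of the other members carry the letters known from this regulation, searched on both strands in the 500 bases before the start codon. CATGTAA, a half-site of the alpha2 repressor, was found before STE2, STE6, BAR1 and AGA2, and in 6.31% of 5881 promoters. A form of the Mcm1 site, CC, any base, AAT, any pair of bases and GG in this order, was found before STE2, STE6 and AGA2, and in 3.2% of promoters. Both are in capitals in the stretches below, from R64, whose first bases lie at -229, -212, -264 and -298 from the start codon: chrVI:82351-82380 (forward), chrXI:46478-46507 (reverse), chrIX:322078-322107 (forward) and chrVII:437102-437131 (reverse). In BAR1 the capitals at the end are CATGTAA on the other strand.
STE2: CATGTAAatttCCTAATTGGGtaagtacat
STE6: CATGTAAttaCCTAATAGGGaaatttacac
BAR1: CATGTAAttaccgtaaaaggaaaTTACATG
AGA2: CATGTAAtttCCGAATACGGtaattacacg

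TGAAACA, the pheromone response element read by Ste12, was found before all 6 members outside HMR and in 12% of promoters. FUS1 (chrIII:71614-71651, forward) and AGA1 (chrXIV:703487-703516, forward) lack the other motifs in this window and show it in capitals.
FUS1: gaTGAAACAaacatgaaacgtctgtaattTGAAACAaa
AGA1: cataattttcTGAAACAatattaaaacata

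Transcript levels are given as FPKM, fragments counted per kilobase of transcript and scaled to library depth, as deposited for each library. The libraries held an estimated 22375000 to 25125000 fragments. SUL1 was listed at 0 FPKM in all 3 knockout libraries and at 8.28 and 9.78 FPKM in the wild type, as its labels imply. Differences were tested with limma on log2(FPKM + 1), a scale that understates changes of low genes, over 5712 genes with p-values adjusted over all of them. At an adjusted p under 0.05, 0.263% of genes were called, 11 (0.193%) higher and 4 (0.07%) lower in the knockout, and the median log2 fold change over all genes was -0.07. All 8 members entered the test, and 1 of them, HMRA2, was called, higher in the knockout. Its libraries were also the only ones among the members whose groups did not overlap, against 41.1% of all genes and 13.1% with the knockout on the higher side. The 8 members had a median log2 fold change of -0.14, with 3 values above 0 and 5 below, where 37.4% of all genes were above 0.

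The mating type of the cultures was read first from the markers. STE2, which encodes the alpha-factor receptor carried only by a cells, stood at 114.64 to 142.8 FPKM in the knockout and 131.47 and 145.46 in the wild type. The a-factor receptor STE3, which alpha cells use, had 9.74 to 11.76 FPKM in the knockout and 8.38 and 11.58 in the wild type, below STE2 in every library. The alpha-agglutinin SAG1 had 8.26 to 9.55 FPKM in the knockout and 10.43 and 11.6 in the wild type. Both are alpha-specific genes, and neither was silent. The alpha-factor gene MF(ALPHA)1 was at or near 0, at 0, 0.23 and 0.22 FPKM in the knockout and 0.8 and 0.51 in the wild type, or an estimated 0 to 7 fragments. The minor alpha-factor gene MF(ALPHA)2 had 6.12 to 8.44 FPKM in the knockout and 4.97 and 7.6 in the wild type. The 2 alpha-factor genes thus differed, the major one being the lower in every library. HMLALPHA1, the alpha1 activator frame, was listed at 0 FPKM in all 5 libraries. Counting error alone would allow a frame of its length up to 0.347 FPKM in the shallowest library, the worth of 3 fragments. All 479 windows of HMLALPHA1 are repeated in the genome, and the identical frame at MAT was not analysed here, so its 0 also depends on how repeated fragments were counted, which is not given in the sources used here. ASG7, a further a-specific gene, had 9.62 to 15.82 FPKM in the knockout and 11.69 and 13.76 in the wild type. Not every a-specific gene stood above STE3 throughout. BAR1 was below STE3 in knockout replicates 1 and 3, and ASG7 in knockout replicate 3, while STE6 and AGA2 were above it in every library. None of the 4 alpha genes that entered the test, which include HMLALPHA2 described further on, was called (limma, 1 at an unadjusted p under 0.05, as for 18.6% of all genes), and their median log2 fold change was 0.18. HMLALPHA2 had 159.22 to 190.55 FPKM in the knockout and 137.95 and 147.82 in the wild type, above STE2 in every library. Fragments of the active a2 frame match its end, so its level cannot be assigned to either mating type. STE2 well above STE3 and MF(ALPHA)1 at or near 0 are levels of a cells, in both genotypes, while STE3, SAG1, MF(ALPHA)2 and HMLALPHA2 were not at 0.

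STE2 (chrVI:82580-83875, forward strand) had 131.87, 142.8 and 114.64 FPKM in knockout replicates 1, 2 and 3, and 145.46 and 131.47 in wild-type replicates 1 and 2. The groups overlapped, with the highest library in the wild type and the lowest in the knockout. Its log2 fold change was -0.10 ± 0.12 (SE, limma, adjusted p = 0.652), with a 95% interval from -0.37 to 0.17. With 1 library left out it lay between -0.17 and -0.011.

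STE6 (chrXI:42423-46295, reverse strand) encodes the transporter that exports a-factor. Its values were 13.97, 18.88 and 11.84 FPKM in the knockout and 19.23 and 14.37 in the wild type. Knockout replicate 2 and wild-type replicate 1 were the high libraries, and the remaining 3 lay together below them. The log2 fold change was -0.17 ± 0.21 (SE, limma, adjusted p = 0.660), with an interval from -0.67 to 0.32.

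BAR1 (chrIX:322342-324105, forward strand) encodes a secreted protease that degrades alpha-factor. It read 8.81, 14.03 and 8.6 FPKM in the knockout and 16.95 and 11.01 in the wild type. The same pair of libraries was high, and the groups overlapped. Of the members BAR1 had the lowest log2 fold change, -0.39 ± 0.26 (SE, limma, adjusted p = 0.433), with an interval from -1.0 to 0.22. It ranged from -0.097 without wild-type replicate 1 (limma, adjusted p = 0.894) to -0.68 without wild-type replicate 2 (0.737), and was -0.60 without knockout replicate 2 (0.0738), with no call in any.

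The a-agglutinin of the cell surface is made of an anchor, AGA1, and an adhesive subunit, AGA2, joined by disulfide bonds. AGA2 (chrVII:436570-436833, reverse strand) had 112.1, 130.8 and 95.27 FPKM in the knockout and 125.24 and 131.13 in the wild type. AGA1 (chrXIV:703699-705876, forward strand) had 8.35, 7.65 and 7.52 FPKM in the knockout and 8.01 and 6.6 in the wild type. Neither subunit separated the groups. Their log2 fold changes were -0.20 ± 0.14 for AGA2 and 0.09 ± 0.15 for AGA1 (SE, limma, adjusted p = 0.446 and 0.741). AGA2 moved to -0.081 without knockout replicate 3, to -0.31 without knockout replicate 2 and to -0.42 with a trend with gene length removed, without a call in any of them. In FPKM, AGA2 stood 12.7 to 17.1 times above AGA1 in the knockout and 15.6 and 19.9 times above it in the wild type. The size of this ratio depends on the length that FPKM divides by. That length was estimated at 122 of 264 coding bp for AGA2 and 2036 of 2178 for AGA1. The log2 of this ratio was 3.67 ± 0.23 (SD, n = 3) in the knockout and 3.96 ± 0.22 (SD, n = 2) in the wild type, with overlapping libraries (two-sided exact permutation test, p = 0.3, and 0.3 adjusted over 2 ratios).

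FUS1 (chrIII:71803-73341, forward strand), a membrane protein of cell fusion and a common reporter of pheromone signalling, was low in all libraries. It had 1.82, 2.59 and 1.74 FPKM in the knockout and 2.94 and 1.98 in the wild type, an estimated 61 to 102 fragments each. The high libraries were again knockout replicate 2 and wild-type replicate 1. The log2 fold change was -0.18 ± 0.24 (SE, limma, adjusted p = 0.688), with an interval from -0.73 to 0.38, and on a scale with 1 FPKM added it is compressed.

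**Figure D2:**
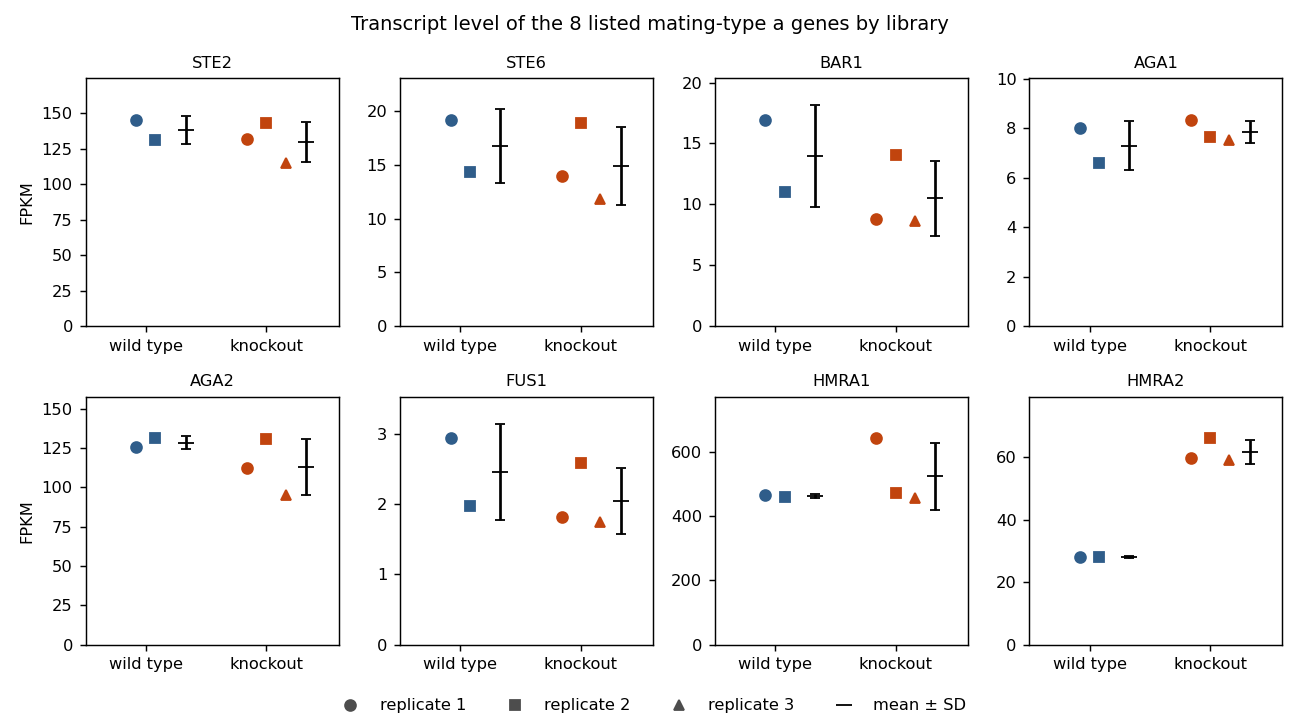
Transcript level in FPKM (vertical axes, each from 0) of the 8 listed members in the 2 wild-type and 3 knockout libraries, with the mean and SD beside the points. HMRA2 alone has all knockout libraries, at 59.15 to 66.1 FPKM, above both wild-type libraries.

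HMRA1 encodes the a1 frame, a homeodomain protein that in diploids pairs with alpha2. Its values were 642.89, 472.76 and 455.08 FPKM in the knockout and 466.52 and 458.35 in the wild type, the highest level per length of the 8 members in every library. Knockout replicate 1 stood apart above the others, and the remaining 4 lay within a narrow range. Its log2 fold change was 0.16 ± 0.15 with all libraries (SE, limma, adjusted p = 0.564) and 0.0044 without knockout replicate 1 (limma, adjusted p = 0.990).

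HMRA2 carries the a2 frame, for which no role in an a cell is established. It had 59.68, 66.1 and 59.15 FPKM in the knockout and 27.89 and 28.15 in the wild type, an estimated 321 to 354 and 137 to 150 fragments. All knockout libraries were above both wild-type libraries, and the spread inside each group was small. The knockout mean of 61.6 ± 3.87 FPKM (SD, n = 3) was 2.20 times the wild-type mean of 28.0 ± 0.18 (SD, n = 2). The log2 fold change was 1.11 ± 0.09 (SE, limma, adjusted p = 0.0150), with an interval from 0.89 to 1.33, and 0.333% of all genes had a value as high. The call was lost without knockout replicate 3 (limma, adjusted p = 0.114), without wild-type replicate 1 (0.0882) and without wild-type replicate 2 (0.144), settings in which 0.0% of all genes were called (limma, 317 to 747 at an unadjusted p under 0.05), while the log2 fold change stayed between 1.06 and 1.14 with any 1 library left out.

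Set against HMRA1 of the same library, HMRA2 had 0.0928, 0.140 and 0.130 of its level in knockout replicates 1, 2 and 3. In the wild type the ratio was 0.0598 and 0.0614. No knockout library reached down to a wild-type one, and a scaling of the whole library cannot move this ratio. The log2 ratio was 0.95 higher in the knockout (two-sided exact permutation test, p = 0.1, the smallest that 3 against 2 libraries allow, and 0.2 adjusted over 2 ratios).

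**Figure D3:**
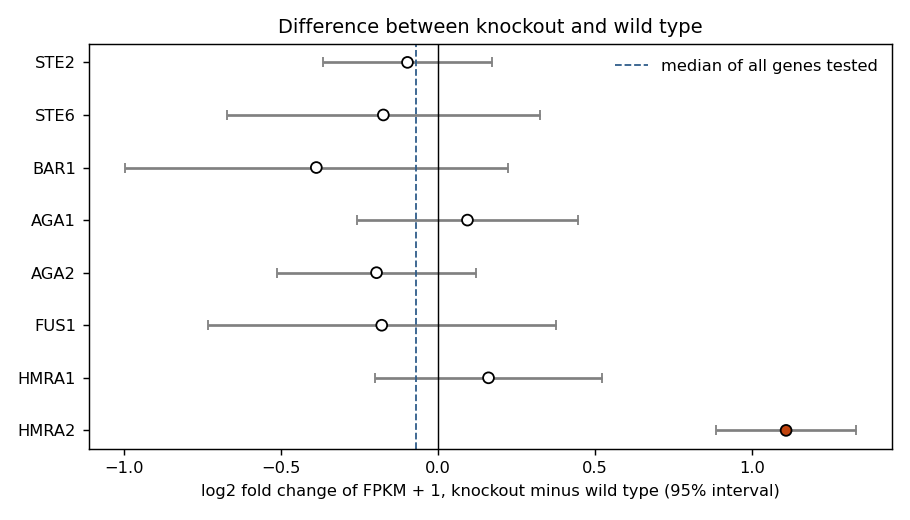
Log2 fold change of FPKM + 1, knockout minus wild type, with its 95% interval from limma (horizontal axis) for the 8 members; filled points passed an adjusted p of 0.05. The intervals of 7 members include 0, and that of HMRA2 runs from 0.89 to 1.33.

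Since HMRA2 is contained in HMLALPHA2, the level of the longer frame was set beside it. HMLALPHA2 had 190.55, 172.32 and 159.22 FPKM in the knockout and 147.82 and 137.95 in the wild type. Its knockout libraries too were all above the wild type, which held for 13.1% of all genes, and the log2 fold change was 0.28 ± 0.10 (SE, limma, adjusted p = 0.233), without a call. The fragments of both frames were then summed in each library and divided by the effective length of HMLALPHA2, a choice made after seeing the data. MATALPHA2, the further identical copy, was not analysed here, so any fragments counted there are missing from this sum and from the shares that follow. The sum was 217, 202 and 185 FPKM in the knockout and 160.2 and 150.4 in the wild type, with means of 201 ± 15.8 (SD, n = 3) and 155 ± 6.90 (SD, n = 2). The groups still did not overlap, but the ratio of the means was 1.3, against 2.20 for HMRA2. As 1 row the pair had a log2 fold change of 0.37 ± 0.10 (SE, interval 0.14 to 0.60) and was not called (limma, adjusted p = 0.177), in a table where 0.21% of genes were.

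The share of these fragments that the tables list under HMRA2 was 12.2%, 14.6% and 14.2% in the knockout and 7.73% and 8.31% in the wild type. The groups thus did not overlap in the sum, which was not called, nor in the way it was divided between the frames. HMRA2 equals only the end of HMLALPHA2, so fragments from the rest of HMLALPHA2 also enter this share. Whether transcription at HMR, MAT or HML differed cannot be told apart from these values, and how the division between the copies arose was not tested.

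**Figure D4:**
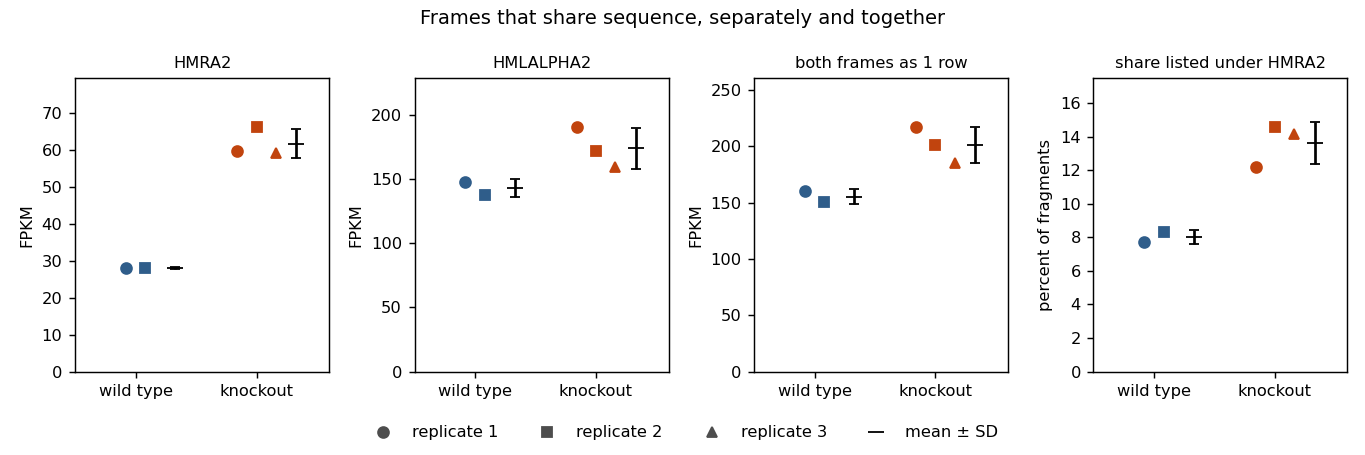
HMRA2, HMLALPHA2 and both frames as 1 row in FPKM, and the percentage of their fragments listed under HMRA2, in the 2 wild-type and 3 knockout libraries with the mean and SD. The knockout is above the wild type in all 4 panels, by a ratio of 2.20 for HMRA2 and 1.3 for the sum.

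By the rule on similar patterns, the genes closest to HMRA2 across the 5 libraries, of 5047 with at least 10 FPKM, were YGR240C-A, NCE101 and NQM1. Their centred log2 values differed from those of HMRA2 by a root mean square of 0.14, 0.15 and 0.16. YGR240C-A is an uncharacterised frame with 19.35 to 22.95 FPKM in the knockout and 8.92 and 10.17 in the wild type. NCE101, tied to non-classical protein export, had 37.52 to 47.16 and 21.09 and 23.96 FPKM, and the transaldolase NQM1 had 35.31 to 43.76 and 17.67 and 18.69 FPKM. Over 5 libraries, this measure ranks genes mainly by their difference between the groups.

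The neighbours of HML, MAT and HMR showed whether a wider stretch of chromosome III moved with HMRA2. Of 14 neighbours listed, 11 entered the test and 0 were called, with a median log2 fold change of 0.02. At an unadjusted p under 0.05 were 3 of the 11 and 18.6% of all genes (limma). Beside HMR, OCA4 had 64.16 to 66.91 FPKM in the knockout and 59.42 and 68.97 in the wild type, and the glycerophosphoinositol permease GIT1 had 2.43 to 4 and 2.87 and 3.47 FPKM. Beside HML, the transporter VBA3 was listed at 0 to 0.04 FPKM in all libraries. CHA1, a serine deaminase near HML, had 344.28, 263.78 and 388.47 FPKM in the knockout and 189.71 and 217.24 in the wild type. Its groups did not overlap, with the knockout on the higher side, which held for 13.1% of all genes. The log2 fold change was 0.69 ± 0.17 (SE, limma, adjusted p = 0.169), and without knockout replicate 2, where 15.7% of all genes were called and 5.22% were called higher, CHA1 was among them (limma, adjusted p = 0.00400). YCR041W, a dubious frame that overlaps the reference's MATALPHA1, had 18.42, 20.96 and 20.48 FPKM in the knockout and 15.1 and 16.61 in the wild type, a difference without a call (0.31 ± 0.12 on the log2 scale, SE, limma, adjusted p = 0.233). Its bases up to chrIII:201174 are identical to HML, and those up to chrIII:201064 also to HMR. Its level thus also depends on how repeated fragments were counted.

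Regulators of silencing and cell type were not called either (limma, 0 of 13, with 2 at an unadjusted p under 0.05). Their median log2 fold change was -0.20, against -0.07 over all genes. Of their values, 11 of 13 were negative, where 37.4% of all genes were above 0. The median was -0.014 after removal of a trend with gene length and -0.064 without knockout replicate 3. SIR4, a structural subunit of the silencing complex, had 11.26, 15.7 and 9.46 FPKM in the knockout and 15.84 and 15.34 in the wild type. The groups overlapped in knockout replicate 2, and the difference was -0.36 ± 0.20 on the log2 scale (SE, limma, adjusted p = 0.346). The corepressor TUP1 had 63.3 ± 5.41 and 79.6 ± 1.36 FPKM (log2 fold change -0.33 ± 0.10, limma, adjusted p = 0.196). The histone deacetylase SIR2 had 16.84, 22.58 and 15.61 FPKM in the knockout and 22.53 and 18.55 in the wild type, with overlapping groups. Without knockout replicate 2, 4 of the 13 were called lower, where 10.4% of all genes were (limma).

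The pheromone pathway gave no call in any of its branches with all 5 libraries. Of 19 signalling genes, from the G protein to Ste12, 0 were called (limma, 2 at an unadjusted p under 0.05), and 16 of 19 values were negative with a median of -0.17. Over all genes, 37.4% of values were above 0 and the median was -0.07. After removal of a trend with gene length the median was -0.03. STE12 itself had 22.17, 28.31 and 20.63 FPKM in the knockout and 32.31 and 32.49 in the wild type, with no overlap, which held for 28.0% of all genes on the lower side. Its difference was -0.45 ± 0.14 on the log2 scale (SE, limma, adjusted p = 0.201). The kinase KSS1 had 17.2 ± 0.50 and 23.1 ± 2.53 FPKM (log2 fold change -0.40 ± 0.11, limma, adjusted p = 0.182). Both were called lower without knockout replicate 2 (limma, adjusted p = 0.0132 and 0.0477), 2 of the 19 genes, a share close to the 10.4% of all genes called lower in that setting. STE18, the gamma subunit of the pheromone G protein, went the other way, at 244.94 to 301.42 FPKM in the knockout and 196.7 and 239.02 in the wild type (0.29 ± 0.13 on the log2 scale, SE, limma, adjusted p = 0.283).

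Among 25 tested pheromone-induced genes, 0 were called (limma, 2 at an unadjusted p under 0.05) and the median was -0.02. The chitin synthase CHS1 had 38.7 ± 3.57 and 54.5 ± 14.8 FPKM and SST2, which dampens the G protein, 9.15 to 11.47 in the knockout and 11.93 and 12.29 in the wild type (log2 fold changes -0.46 ± 0.17 and -0.26 ± 0.14, SE). Of 7 genes that process a-factor, 0 were called (limma, 0 at an unadjusted p under 0.05) with a median of -0.14. The lowest were the proteases AXL1 and STE23, with log2 fold changes of -0.33 ± 0.15 and -0.23 ± 0.10 (SE). Both medians moved with the setting. That of the a-factor genes ran from -0.23 with equal FPKM sums to -0.0012 after removal of the length trend. That of the pheromone-induced genes ran from -0.12 without knockout replicate 2 to 0.04 after removal of the length trend. Haploid-specific genes, which include STE18 and AXL1, had 0 calls in 10 (limma, 0 at an unadjusted p under 0.05) and a median of -0.13. Without knockout replicate 2, AXL1 was called lower, the only call in both of its lists (limma, adjusted p = 0.0281). PRM1, a fusion membrane protein, was the only call among the pheromone-induced genes, also lower (limma, adjusted p = 0.0237). These were 1 of 7 a-factor genes, 1 of 10 haploid-specific genes and 1 of 25 pheromone-induced genes. In that setting 10.4% of all genes were called lower (limma), so these calls do not set the lists apart. Meiosis genes, used by diploids, had 0 calls in 12 (limma, 1 at an unadjusted p under 0.05) and a median of 0.07 that was -0.02 with equal FPKM sums. The recombinase DMC1 had 21.6 ± 1.17 and 16.4 ± 2.34 FPKM, and the meiosis inducer IME1 21.9 ± 2.19 and 21.4 ± 2.92.

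Some of the members also shared differences between libraries of the same group. Of the 6 members outside HMR, 5 were highest of the knockout in replicate 2, which held for 49.5% of all genes, and 5 were higher in wild-type replicate 1 than in replicate 2, which held for 50.7%. Both held for 4 of the 6, STE2, STE6, BAR1 and FUS1, for 4 of all 8 members, and for 30.8% of all genes. It was not particular to them: both held for 58.3% of meiosis genes, 53.8% of the regulators and 48.0% of pheromone-induced genes. Over all genes, the deviations of knockout replicate 2 and wild-type replicate 1 from their group means correlated at 0.43, across genes that are not independent replicates. BAR1 was 0.63 higher on the log2 scale in knockout replicate 2 than in the mean of replicates 1 and 3, and 0.58 higher in wild-type replicate 1 than in replicate 2. The same differences were 0.52 and 0.40 for STE6 and 0.37 and 0.40 for FUS1. In each of these 3 genes, both differences inside the groups were larger than its own log2 fold change between them. HO, the mating-type switching endonuclease, chosen after its values were seen, showed 1.14 and 0.83, at 8.33, 19.36 and 8.17 FPKM in the knockout and 18.37 and 9.9 in the wild type. The other members did not show both differences, with 0.34 and -0.07 for AGA2, -0.05 and 0.25 for AGA1, -0.19 and 0.03 for HMRA1, and 0.15 and -0.01 for HMRA2.

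**Figure D5:**
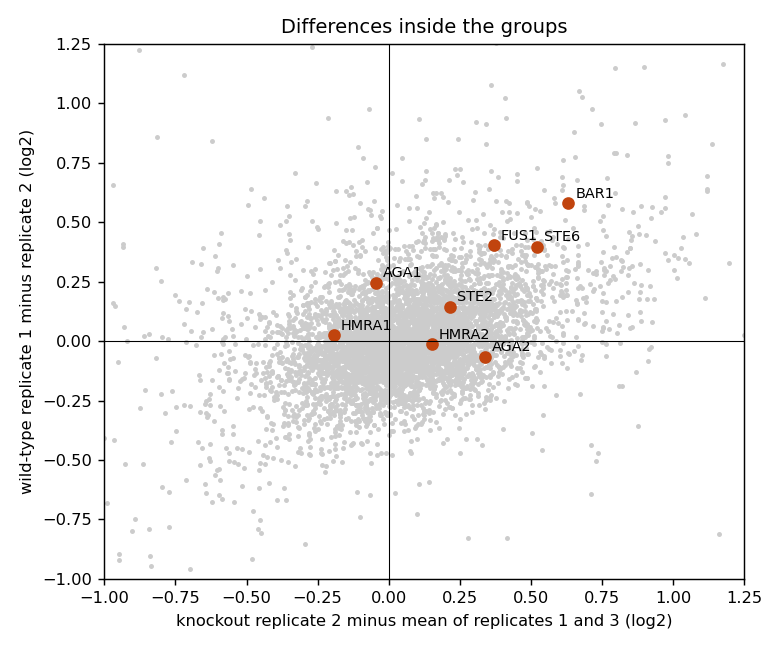
Log2 difference of knockout replicate 2 from the mean of replicates 1 and 3 (horizontal) against the log2 difference of wild-type replicate 1 from replicate 2 (vertical), for all 5712 genes tested (grey, 70 outside the axes) and the 8 members. BAR1, STE6 and FUS1 lie in the upper right quadrant, at 0.63 and 0.58 for BAR1, and HMRA2 lies near the origin.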

How the data were processed

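The members and gene lists were chosen with earlier results of these data known. The authors deposited FPKM per gene, 1 table per strain, per the file headers. DESeq2 1.4.5, RSEM 1.3.1, Bowtie2, HISAT2 2.1.0 and genome build R64 are named, without their roles, per the submitters' processing notes. The sources used here do not give the annotation, the strand setting or the treatment of fragments that match several places. Of 5886 gene identifiers, 5883 matched the R64 RefSeq annotation, which gave positions, sequences and coding lengths, and 3 did not.

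The steps between low values gave an estimate of depth, in genes of 250 to 1200 coding bp with up to 1.5 FPKM. With coding length less 142 bp as the effective length, 88% to 92.4% of 99 to 122 values per library lay within 0.15 of a whole number of fragments. An arbitrary depth gives 30%. In 3 simulated libraries the error of this estimate was at most 0.137%. Depths entered no test, and the sum of HMRA2 and HMLALPHA2 used the effective lengths.

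The 5712 genes that averaged 1 FPKM or more were tested with limma 3.58.1 (R 4.3.3, trended and robust empirical Bayes) on log2(FPKM + 1), genotype only, with Benjamini-Hochberg adjustment and a threshold of 0.05. In 5 simulations of this comparison over 5712 genes, it recovered 79.2% of 1.5-fold and 99.6% of 2-fold changes with 60 false calls in all. Changes were put only into genes above a set mean level, which FUS1 and AGA1 did not reach. The simulated spread was independent between libraries, without the differences that genes shared inside the groups. These shares therefore do not describe the members. In the deposited libraries, 19 genes had a log2 fold change at least as large as that of HMRA2, and 11 genes were called higher. What share of such changes the fit recovers in the deposited libraries was not tested. Alternatives were other pseudocounts, filters, scalings, priors, a replicate block and leaving out each library. Named by rule were all members, SUL1, all alpha genes, up to 3 called genes of each list or else the 2 with the largest change and at least 10 FPKM, and the 3 genes most like a called member; others were chosen after their values were seen. Figures were drawn with matplotlib 3.10.9, and joins and permutation tests used scipy 1.17.1, numpy 2.4.6 and pandas 2.3.3 under Python 3.11.15.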

Additional observations from a re-analysis of the deposited data

How the results depend on the processing

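HMRA2 kept its direction under all 14 alternatives (log2 fold change 0.37 to 1.17) and its call in 9 of them, and no other member was called in any (limma). The call was lost with the replicate block (1.14, limma, adjusted p = 0.183), with HMRA2 and HMLALPHA2 as 1 row (0.37), and when knockout replicate 3 or either of the wild-type libraries was left out, so members called ranged from 0 to 1 with 1 library left out and were 0 in the other 2 settings. Without a wild-type library, the lone one is assumed to vary like the knockout. STE6 changed sign with the length trend removed (0.10), and with 1 library left out STE6 ranged from -0.37 to 0.025, FUS1 from -0.38 to 0.023 and AGA1 from -0.029 to 0.22. Over all genes, 11 higher and 4 lower calls became 4 higher with equal FPKM sums, 5 higher and 1 lower without the length trend, 7 higher with the untrended prior, 2 lower at a mean of at least 10 FPKM, and 0 and 0 with the block (limma, 399 genes at an unadjusted p under 0.05). With 1 library left out they ranged from 0 to 298 higher and 0 to 596 lower. SUL1, fitted with 1 FPKM added, kept a log2 fold change of -3.43 to -3.21 there, without a call where knockout replicate 3 or a wild-type library was left out (limma, adjusted p = 0.0516 to 0.121), and with the block it was -3.32 without a call (limma, adjusted p = 0.125). Equal FPKM sums moved the median of all genes to -0.16, and every log2 fold change given carries such a shift. Whether the replicate numbers pair the samples is not given in the sources used here. Deviations of same-numbered libraries correlated at -0.37 and -0.43 over genes. The deviations of the 2 wild-type libraries mirror each other, so these values cannot decide it. The depth limits FUS1, with 61 to 102 fragments a library.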
